A study of Mus musculus with 50 samples.

Results

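Intracerebral hemorrhage was compared with its own sham operation in mouse blood serum, over every microRNA (miRNA) with enough counts to test. The comparison rests on the 5 libraries labelled ICH and the 5 labelled ICH_Sham, which are 10 of the 25 libraries of a small RNA sequencing study. The other 15 libraries came from a filament model of ischemic stroke (MCAO), its sham operation (MCAO_Sham) and untreated mice (Naive), with 5 of each. ICH mice had 20 µL of their own blood infused through a needle into the left striatum. ICH_Sham mice had the needle placed with no fluid infused, so both groups had a needle passed into the brain. All groups were C57BL/6 mice aged 8 to 12 weeks, and the time between the operation and blood sampling is given in the labels for the MCAO model but not for hemorrhage. Whether the libraries of a group are separate animals is not in the labels, so p-values measure the spread between libraries, which may be technical. For the test of each miRNA that spread was estimated over all 25 libraries, not from ICH and ICH_Sham alone. ICH and ICH_Sham libraries carry index tags from separate ranges, so that tag range and group cannot be told apart.

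miRNAs are short RNAs that guide Argonaute proteins to messenger RNAs, mainly through the seed at the 5′ end of the mature strand. They reach the serum from blood cells, platelets, endothelium, liver, muscle and, after injury, from damaged tissue, carried in vesicles, lipoproteins or protein complexes. Some are made almost only in one tissue, such as miR-122 in liver, miR-9 and miR-124 in neurons and miR-133a in muscle, and their serum level is read as a sign of release from that tissue.

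The mature sequences of 14 miRNAs on which the results below turn are given 5′ to 3′ from RefSeq for GRCm38.p6, with the seed (bases 2 to 8) in capitals. They are the leading miRNAs of the comparison that the reference holds, the neuronal miRNAs, a pair from one locus that stood high in a single sham library, and a miRNA for which hemorrhage and ischemia differed.
miR-203-3p: gUGAAAUGuuuaggaccacuag
miR-205-5p: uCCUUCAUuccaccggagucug
miR-615-3p: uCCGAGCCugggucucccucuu
miR-29a-3p: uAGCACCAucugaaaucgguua
miR-300-3p: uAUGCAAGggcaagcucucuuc
miR-9-5p: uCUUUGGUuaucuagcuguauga
miR-9-3p: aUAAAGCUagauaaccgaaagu
miR-129-5p: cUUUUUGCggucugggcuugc
miR-351-5p: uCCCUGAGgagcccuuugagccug
miR-6538: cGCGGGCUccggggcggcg
miR-184-3p: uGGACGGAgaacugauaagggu
miR-182-5p: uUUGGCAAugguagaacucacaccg
miR-183-5p: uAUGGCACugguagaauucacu
miR-1298-5p: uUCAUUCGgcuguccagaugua
No 2 of these 14 share a seed. miR-203-3p lies at chr12:112130927-112130948 (+) and miR-184-3p at chr9:89802263-89802284 (-), both outside the genes of the GENCODE annotation other than the miRNA itself, and miR-205-5p at chr1:193507503-193507524 (-), in an exon of the non-coding gene 4631405K08Rik. miR-615-3p lies at chr15:103014969-103014990 (+) in an intron of Hoxc5, and miR-6538 at chr12:26414970-26414988 (-) in an intron of Rnf144a. The same miR-9-5p is made from 3 hairpins, at chr3:88215613-88215635 (+), chr7:79505279-79505301 (+) and chr13:83738821-83738843 (+), so its reads cannot be given to one of them, and miR-129-5p likewise from 2, at chr2:94241419-94241439 (-) and chr6:29022624-29022644 (+). The miR-9 hairpins lie in the non-coding genes Gm3764, Mir9-3hg and C130071C03Rik, and those of miR-129 in Gm3294 and Mir670hg.

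Both runs of a library were summed, as they differed no more than counting noise allows in these 10 libraries (chi-square of 0.792 to 1.21 for each degree of freedom). Total counts were 118431 ± 24159 (SD, n = 5; 92040 to 156842) in ICH and 115325 ± 41509 (SD, n = 5; 75052 to 183112) in ICH_Sham. Of 1892 miRNA entries, 752 had a count in these 10 libraries, and 199 passed the filter on low counts with 99.5% of all counts. Levels are counts per 1000000 (CPM) of each library's total after scaling with TMM factors (trimmed means of log ratios between libraries), in which 1 count is worth 5.76 to 11.8 CPM. The serum was dominated by few miRNAs, since the 10 most abundant held 49.2% of the counts (41.7 to 63.0% per library). They were led by the liver miRNA miR-122-5p with 10.7% and by miR-148a-3p with 8.72%. The 4 of these 10 that are not described below had log2 fold changes of -0.02 to 0.16 between ICH and ICH_Sham. Library ICH_Sham 1 stood apart among the 10, with 32.5% of its counts from miR-122-5p and the lowest TMM factor of the 10 at 0.728. ICH 1 had the second lowest at 0.847. Outside the 10, library Naive 2 was alike, with 450460 CPM of miR-122-5p beside 448257 CPM in ICH_Sham 1 and a TMM factor of 0.723.

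No miRNA passed the test between hemorrhage and sham. edgeR's quasi-likelihood test called 0 of 199 miRNAs at a Benjamini-Hochberg adjusted p under 0.05 (0% called), and the smallest adjusted p was 0.421. At an unadjusted p under 0.05 there were 20 miRNAs (10.1%), 13 of them higher in ICH (6.53%) and 7 lower (3.52%), where 9.95 would fall under 0.05 by the threshold alone. DESeq2 and limma voom also called 0, with 17 and 19 at an unadjusted p under 0.05. The median log2 fold change over the 199 was 0.02, and 106 were positive and 93 negative. Leaving out library ICH 4 gave 1 call, miR-203-3p, at a log2 fold change of 1.09 and an adjusted p of 0.0319.

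The precision was enough to bound most miRNAs. Standard errors of the log2 fold changes had a median of 0.28 and ranged from 0.15 to 0.96. They and the 95% intervals were worked back from the fold change and F statistic of edgeR's test, so they restate its unadjusted p-values. For 136 of the 199 miRNAs the 95% interval lay within 1 log2 unit on either side of 0, that is, within a 2-fold change in either direction, and for 63 it reached further. Fold changes beyond 1 log2 unit were fitted for 7 miRNAs, 4 higher and 3 lower in ICH, with a range over all miRNAs from -1.28 for miR-122-5p to 1.81 for the glial miR-219a-2-3p.

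**Figure D1:**
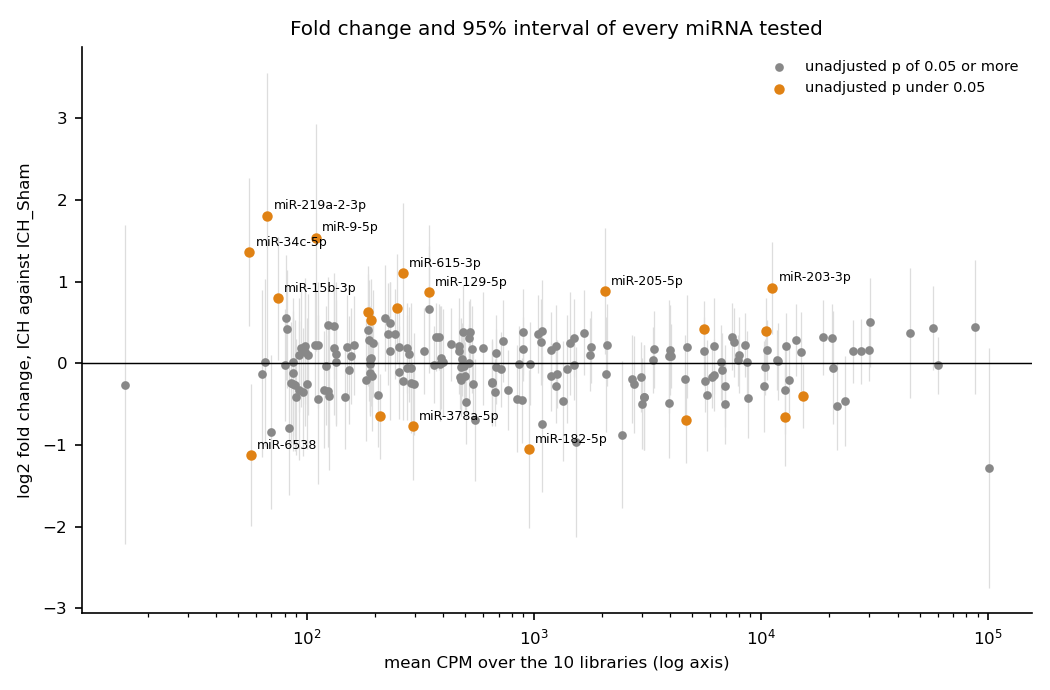
Log2 fold change of ICH against ICH_Sham (vertical axis) against mean CPM over the 10 libraries (horizontal log axis) for the 199 miRNAs tested, with 95% intervals as grey lines. The 20 orange points have an unadjusted p under 0.05 and lie on both sides of 0, and those with a log2 fold change beyond 0.7 in size are named.

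A miRNA of skin led the ranking. miR-203-3p, which in epidermis holds back the stem cell factor p63, had the smallest p of all. Its level in ICH libraries 1 to 5 was 10184, 10462, 28302, 6720.2 and 17981 CPM, against 7127, 9325, 7674, 7316 and 7223 CPM in ICH_Sham libraries 1 to 5. ICH 3 and ICH 5 were the highest, ICH 4 lay below every sham library, and the groups overlapped. The log2 fold change was 0.93 ± 0.28 (SE) with a 95% interval of 0.37 to 1.49 and an adjusted p of 0.421, and without ICH 3 it was 0.55. Naive mice had 5693 ± 2152 CPM (SD, n = 5). In serum counts, the number of cells that release a miRNA and the amount released per cell cannot be told apart.

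miR-205-5p, a miRNA of basal epithelial cells, measured 1219, 1028, 7118, 1394 and 2551 CPM in ICH and 1115, 1619.6, 1885, 1338 and 1247 CPM in ICH_Sham. A single library, ICH 3, stood above all others, and the fold change of 0.88 ± 0.38 (SE) (adjusted p = 0.462) came down to 0.10 without it. The list of skin and epithelial miRNAs as a whole had 9 of 10 members tested, with 4 positive and 5 negative fold changes. Among them 3 had an unadjusted p under 0.05, beside 10.1% of all 199 (miR-203-3p and miR-205-5p higher in ICH, miR-182-5p lower), and the list's median log2 fold change was -0.0038 beside 0.02 over all miRNAs. Its summed level ran from 18669 to 46021 CPM in ICH and from 17739 to 27707 CPM in ICH_Sham.

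miR-615-3p, from an intron of Hoxc5 in the HoxC cluster, measured 139.9, 224.4, 854, 184 and 403 CPM in ICH and 75.3, 234, 124, 129 and 282 CPM in ICH_Sham. The order of the ICH libraries repeated that of miR-203-3p at its top, with ICH 3 the highest and ICH 5 next, while ICH 1, ICH 2 and ICH 4 lay within the sham range. Its log2 fold change was 1.10 ± 0.42 (SE) (adjusted p = 0.462) and 0.53 without ICH 3. The neuronal miR-134-5p, from the Dlk1-Dio3 imprinted region, had the same pair of libraries on top, with 169.9, 159, 596, 236 and 387 CPM in ICH against 218.5, 242, 207, 109 and 176 CPM in ICH_Sham. Its log2 fold change of 0.68 ± 0.32 (SE) (adjusted p = 0.462) was 0.32 without ICH 3.

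The other Hox miRNAs took a different library as their highest. miR-10a-5p and miR-10b-5p, which share a seed and sit in the HoxB and HoxD clusters, were both highest in ICH 1. miR-10a-5p measured 66349.5, 31479, 28133, 14869 and 36403 CPM in ICH and 18073, 24536, 24899.6, 26428 and 31207 CPM in ICH_Sham, a log2 fold change of 0.50 ± 0.27 (SE) (adjusted p = 0.472) that was 0.13 without ICH 1. miR-10b-5p, among the 10 most abundant, had 65893 ± 23284 CPM in ICH and 48638 ± 7647 CPM in ICH_Sham (SD, n = 5 each). All 3 tested members of the Hox list had positive fold changes (106 of all 199 were positive), with a median of 0.50 beside 0.02 over all 199. Of the 3, 1 was higher at an unadjusted p under 0.05 (6.53% over all 199) and none were called.

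miR-34c-5p, induced by p53 and abundant in ciliated epithelium and testis, was one of 2 miRNAs whose ranges in the 2 groups did not overlap (1.01% of the 199). It measured 129.9, 122, 49.63, 46.1 and 63.2 CPM in ICH and 45.2, 33.4, 24.8, 9.91 and 35.3 CPM in ICH_Sham. Every ICH library lay above every sham library, but the lowest ICH and the highest sham library were closer than 1 count. The log2 fold change was 1.36 ± 0.44 (SE) with a 95% interval of 0.46 to 2.27 and an adjusted p of 0.441, and it ran from 1.13 to 1.56 when any 1 of the 10 libraries was left out. Naive libraries had 52.9 ± 42.3 CPM (SD, n = 5), a mean between those of the groups, but their median of 25.6 CPM lay below the sham median of 33.4 CPM. It was the only tested member of the miR-34 list, of 5 members with counts.

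miR-6538 was the other without overlap, and it was lower in ICH. The ICH libraries held 39.98, 37.4, 19.9, 40.3 and 39.5 CPM and the sham libraries 60.3, 91.8, 132, 49.57 and 58.8 CPM. The lowest library was ICH 3 and the highest ICH_Sham 3, and the gap between the groups was again close to the worth of 1 count. Its log2 fold change was -1.12 ± 0.43 (SE) (95% interval -1.99 to -0.25, adjusted p = 0.462), and Naive mice had 85.2 ± 29.9 CPM (SD, n = 5). With both libraries of low TMM factor, ICH 1 and ICH_Sham 1, left out, 8 miRNAs had ranges that did not overlap. Smaller groups part more easily. By arrangement alone, ranges do not overlap with a probability of 0.0286 for 4 against 4 libraries and 0.00794 for 5 against 5. The count of 8 therefore cannot be set against the 2 found with all 10 libraries.

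**Figure D2:**
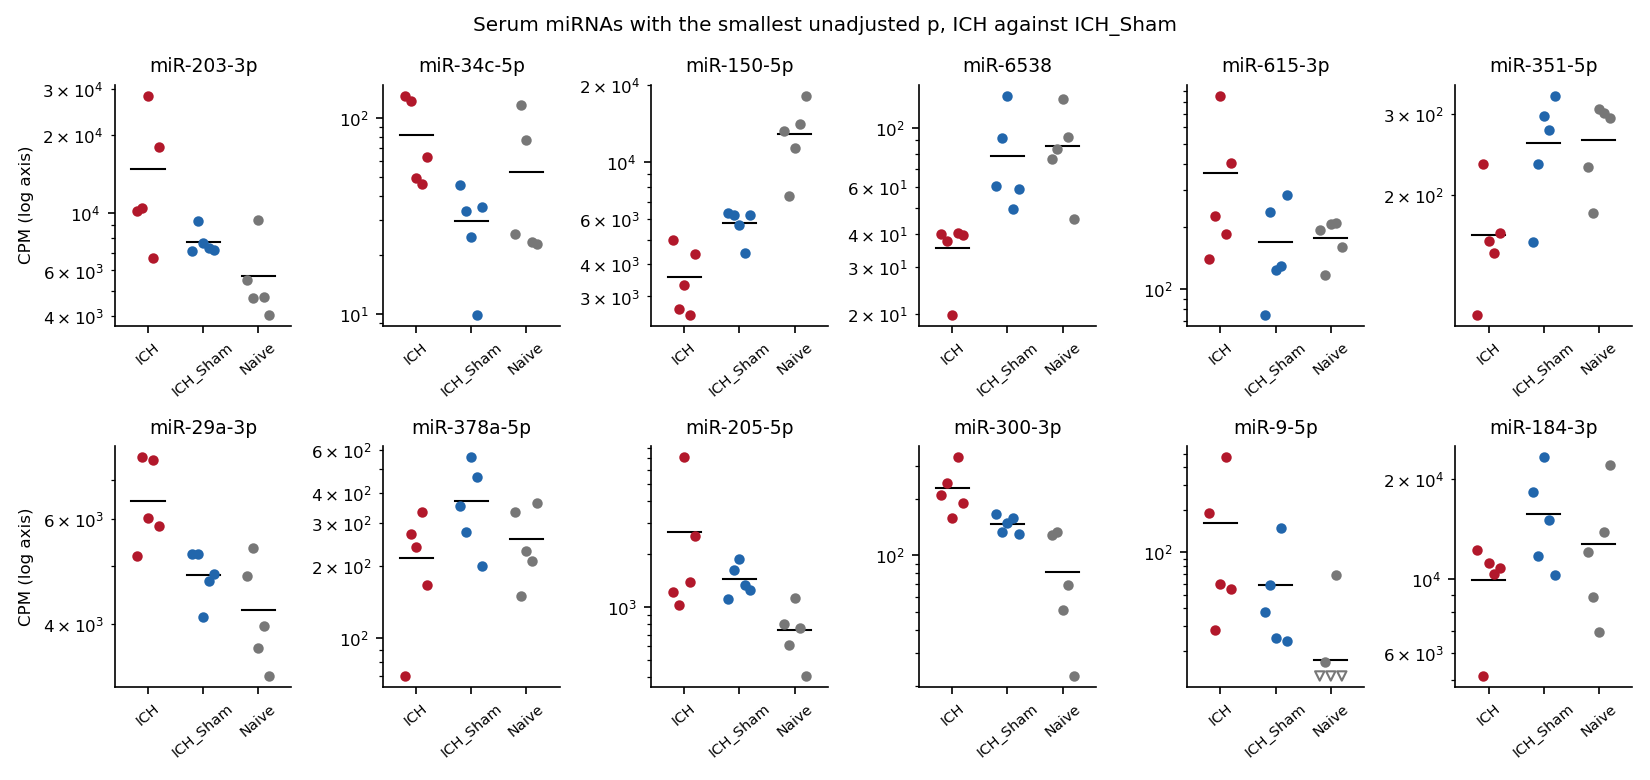
CPM (log axes) of the 12 miRNAs with the smallest unadjusted p in each ICH, ICH_Sham and Naive library (points), with the group mean as a line and open triangles at the foot for libraries with 0 counts. The ICH and ICH_Sham points overlap in 10 of the 12 panels, the exceptions being miR-34c-5p and miR-6538.

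Among blood cell miRNAs the leading one was miR-150-5p, made by mature lymphocytes, which was lower in ICH. It measured 4977, 2683, 3316, 2551 and 4383 CPM in ICH and 6321, 6245, 5698, 4421 and 6211 CPM in ICH_Sham. The groups overlapped only through ICH 1 and ICH_Sham 4, and Naive mice were higher than both with 12856 ± 3928 CPM (SD, n = 5). The log2 fold change was -0.69 ± 0.26 (SE), with a 95% interval of -1.22 to -0.16 and an adjusted p of 0.462. No leave-one-out value of it was nearer to 0 than -0.61. The lymphocyte list had 4 of 6 members tested, 2 positive and 2 negative, with a median of -0.11. Of these, 1 member, miR-150-5p, was lower at an unadjusted p under 0.05 (3.52% over all 199).

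miR-191-5p, abundant in platelets and leukocytes, measured 10843, 11219, 17779, 10602 and 15525 CPM in ICH and 16152, 14017, 19103, 18627 and 18962 CPM in ICH_Sham. ICH 1, ICH 2 and ICH 4 lay below all sham libraries and ICH 3 and ICH 5 among them, and the log2 fold change was -0.40 ± 0.19 (SE) (adjusted p = 0.462). Its neighbours miR-191-3p and miR-425-5p, transcribed with it on chromosome 9, had fold changes of -0.80 and -0.35, so all 3 were negative. The list of myeloid and platelet miRNAs had 5 of 6 members tested, with a median of -0.15. Of these, 1 was lower at an unadjusted p under 0.05 (3.52% over all 199) and 0 were called.

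Red cell miRNAs lay on both sides of 0 after the infusion of blood into the brain. miR-486-5p, listed jointly with miR-3107-5p and abundant in erythrocytes, measured 19788, 14978, 14295, 18203 and 20981 CPM in ICH and 17584, 20754, 30415, 25050.5 and 33360.0 CPM in ICH_Sham, a log2 fold change of -0.53 ± 0.26 (SE) (adjusted p = 0.462). miR-451a, the other main erythrocyte miRNA, measured 6606, 5731, 2462, 7377 and 3127 CPM in ICH and 4309, 5042, 4093, 3708 and 4811 CPM in ICH_Sham, with a log2 fold change of 0.20 ± 0.31 (SE) (adjusted p = 0.776). miR-451a was lowest in ICH 3 and ICH 5, the libraries in which miR-203-3p was highest. miR-486-3p, the opposite strand of the hairpin of miR-486-5p and singled out here after its values were seen, had a fold change of 0.42 ± 0.35 (SE), of the opposite sign. The red cell list had all 7 tested members of 9 within -0.53 to 0.42, 3 positive and 4 negative, with a median of -0.03.

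The log2 ratio of miR-486-5p to miR-23a-3p was the only one of 6 values per library that passed its test. In hemolysis checks a ratio to miR-23a-3p, usually that of miR-451a, is used to gauge red cell RNA. The fold change of miR-23a-3p itself was 0.32 ± 0.22 (SE), with 20832 ± 3789 CPM in ICH and 16709 ± 1072 CPM in ICH_Sham (SD, n = 5 each), so numerator and denominator lay on opposite sides of 0. The miR-486-5p ratio was -0.05, -0.08, -0.88, -0.11 and -0.06 in ICH libraries 1 to 5 and 0.22, 0.28, 0.86, 0.48 and 1.01 in ICH_Sham libraries 1 to 5. All ICH libraries lay below all sham libraries, a difference of -0.81 on the log2 scale (-0.24 ± 0.36 against 0.57 ± 0.35, SD, n = 5 each) with an exact two-sided permutation p of 0.00794, the smallest that 5 against 5 allows, and an adjusted p of 0.0476 over the 6 values. Without ICH 3 the difference was -0.64 and the adjusted p 0.143 by the same permutation test. The remaining ICH libraries still all lay below all sham libraries, but with groups of unequal size other arrangements reach a difference as large. The ratio of miR-451a to the same miR-23a-3p differed by -0.21 (-2.15 ± 0.91 against -1.93 ± 0.22, SD, n = 5 each, exact permutation p = 0.603, adjusted p = 0.762). Naive libraries had a miR-486-5p ratio of 1.51 ± 0.45 (SD, n = 5), and per the labels all sera were screened for hemolysis by absorbance. The share of counts from miR-148a-3p, one of the most abundant serum miRNAs, was 10.0 ± 3.25% in ICH and 7.44 ± 0.997% in ICH_Sham (SD, n = 5 each), and that from miR-122-5p 6.02 ± 1.87% and 12.3 ± 11.5%, with an adjusted exact permutation p of 0.381 for both. The log2 total count and the number of miRNAs detected (430.2 ± 32.7 and 424 ± 23.8, SD, n = 5 each) had an adjusted exact permutation p of 0.762.

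Of the brain miRNAs, miR-9-5p, miR-219a-2-3p and miR-124-3p were few in count and uneven between libraries, whereas miR-128-3p had 1075 to 1936 counts in each. miR-9-5p, made in neurons and neural progenitors, measured 189.9, 28.0, 59.6, 472 and 55.3 CPM in ICH and 37.7, 58.4, 24.8, 149 and 23.5 CPM in ICH_Sham. The highest library was ICH 4 with 82 counts, the highest sham library was ICH_Sham 4 with 15 counts, and ICH 2 had 3 counts. The log2 fold change was 1.54 ± 0.68 (SE) (95% interval 0.15 to 2.93, adjusted p = 0.462). It was 0.46 without ICH 4 and 2.17 without ICH_Sham 4. Naive libraries had 17.2 ± 30.1 CPM (SD, n = 5).

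miR-9-3p, the other strand of the same hairpins, was too low for the filter and was counted only. It had 21 counts over the ICH libraries, 13 of them in ICH 4, and 3 counts over the sham libraries, a ratio of CPM of 6.44 with an exact 95% interval of 1.92 to 33.7 that covers counting error only. In the fit with no count filter its adjusted p was 0.384. Naive libraries had 0 counts of it.

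The oligodendrocyte miRNA miR-219a-2-3p measured 39.98, 9.35, 29.8, 271 and 174 CPM in ICH and 52.7, 50.1, 24.8, 19.8 and 0 CPM in ICH_Sham. ICH 4 and ICH 5 were above all other libraries, and the other 3 ICH libraries lay within the sham range. Its log2 fold change, 1.81 ± 0.85 (SE) with a 95% interval of 0.06 to 3.56, was the largest fitted (adjusted p = 0.462), and it was 1.03 without ICH 4. Naive libraries had 50.3 ± 57.7 CPM (SD, n = 5), a mean above that of ICH_Sham at 29.5 CPM, with 139 CPM in Naive 4. The second glial miRNA tested, miR-338-5p, had a fold change of 0.22 ± 0.30 (SE). The opposite strands, miR-219a-5p and miR-338-3p, had 0 counts in all 10 libraries. That allows up to 4.93 CPM over the ICH group and 5.36 CPM over the sham group (3 counts), a limit for counting error only. How reads were assigned to these entries is not known.

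miR-129-5p, enriched in neurons, measured 729.6, 131, 278, 587 and 505 CPM in ICH and 166, 309, 215.01, 367 and 165 CPM in ICH_Sham. ICH 1, ICH 4 and ICH 5 lay above every sham library and ICH 2 below all of them. It had a log2 fold change of 0.87 ± 0.40 (SE) (adjusted p = 0.462), which was 0.61 without ICH 1 and 1.08 without ICH 2, the lowest and highest with 1 of the 10 libraries left out. miR-128-3p, the most abundant member of the neuronal list, went slightly the other way with 12416 ± 1449 CPM in ICH and 14317 ± 1547 CPM in ICH_Sham (SD, n = 5 each) and a fold change of -0.21 ± 0.19 (SE).

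miR-124-3p, the most abundant miRNA of neurons, was highest in ICH 4 and ICH_Sham 4 within their groups, as was miR-9-5p. It had 27 counts in ICH, 15 of them in ICH 4, and 58 in ICH_Sham, 51 of them in ICH_Sham 4, a ratio of 0.428 (exact 95% interval 0.261 to 0.687, counting error only). The direction rested on ICH_Sham 4, without which the counts were 27 in 5 ICH libraries and 7 in 4 sham libraries. The activity-regulated neuronal miRNAs miR-132-3p and miR-212-3p, from one locus, had 37 against 16 counts (ratio 2.13, 1.15 to 4.10) and 26 against 15 counts (ratio 1.59, 0.814 to 3.24). Of miR-132-3p, 15 of the 37 ICH counts were in ICH 4, whereas 13 of the 26 counts of miR-212-3p were in ICH 3. Of the 16 neuronal miRNAs in the table, 14 had counts in these 10 libraries, 3 were tested, 2 of these were higher at an unadjusted p under 0.05 (6.53% over all 199), and 0 were called. Their median fold change was 0.87, over 3 members only, and their summed level, set mostly by miR-128-3p, was 11833 to 14662 CPM in ICH and 12702 to 16904 CPM in ICH_Sham.

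**Figure D3:**
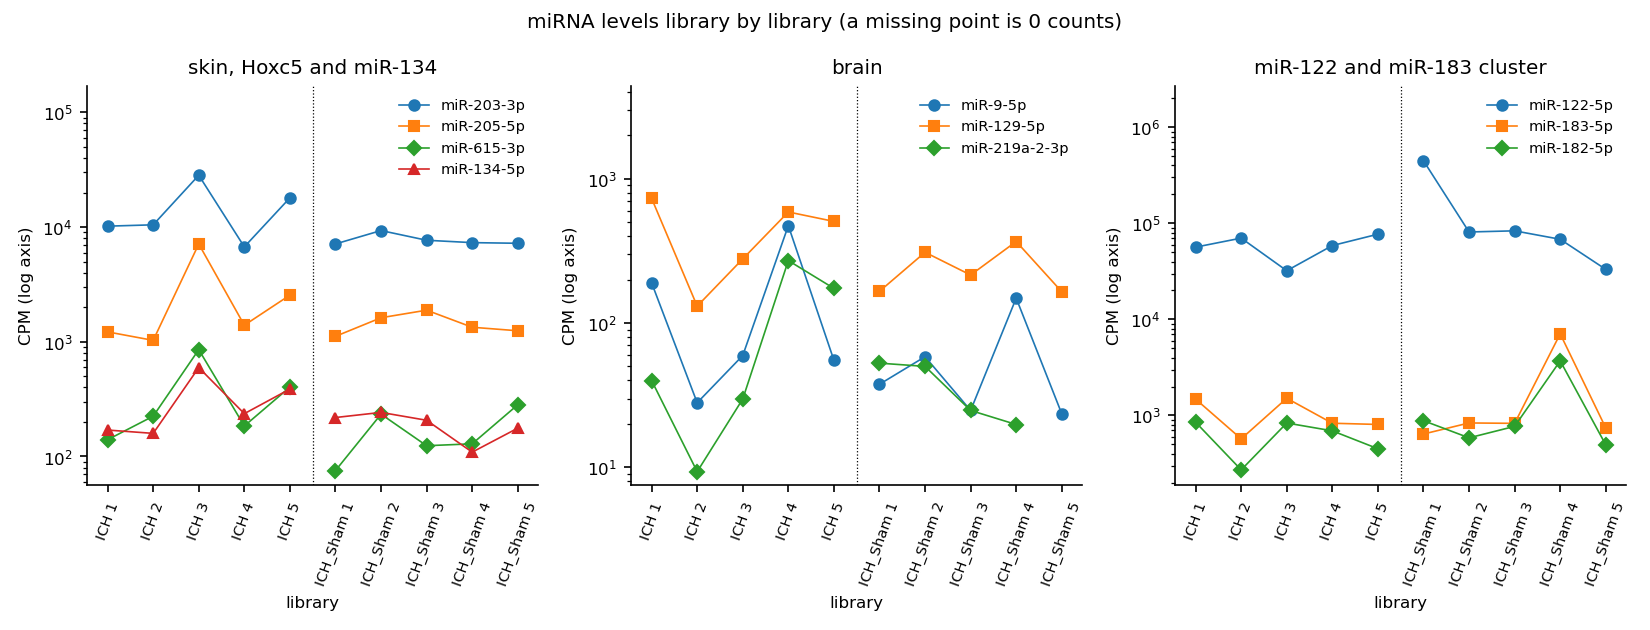
CPM (log axes) in each of the 5 ICH and 5 ICH_Sham libraries (horizontal axis) of 4 miRNAs highest in ICH 3 (left), 3 brain miRNAs (middle) and 3 miRNAs with 1 high sham library (right). ICH 3 and ICH 5 are the top libraries in all 4 curves on the left, ICH 4 or ICH 1 in the middle, and ICH_Sham 1 (miR-122-5p) or ICH_Sham 4 (miR-182-5p and miR-183-5p) on the right.

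The Dlk1-Dio3 imprinted region, whose miRNAs are made from the maternal chromosome mainly in brain, placenta and muscle, had 11 of the 42 members of its list tested. Of the 11, 10 were positive (106 of all 199 were), 1 was higher at an unadjusted p under 0.05 (6.53% over all 199) and 0 were called. The median log2 fold change was 0.15 (0.02 over all 199), with a range of -0.0015 to 0.63. The list does not hold miR-134-5p (0.68, unadjusted p = 0.0450) and miR-299a-3p (0.56), which the reference places in the same region and which were also tested. The listed member with the smallest p was miR-300-3p at chr12:109724363-109724384 (+), which measured 209.9, 243, 159, 334 and 189.5 CPM in ICH and 166, 134, 149, 159 and 129 CPM in ICH_Sham. All ICH libraries but ICH 3 lay above all sham libraries, and the log2 fold change was 0.63 ± 0.28 (SE) (adjusted p = 0.462). In the reference, 9 tested miRNAs from miR-379-5p to miR-409-3p lie on the plus strand of chromosome 12 with neighbours no more than 10 kb apart. All 9 fold changes were positive (0.05 to 0.68, median 0.17), but neighbours in 1 region need not vary independently.

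miR-184-3p, a miRNA of cornea, lens and neural tissue, was lower in ICH. It measured 12252, 5133, 11188, 10348 and 10849.9 CPM in ICH and 18239, 11721, 23262, 15028 and 10281 CPM in ICH_Sham, with ICH 2 the lowest and ICH_Sham 3 the highest and with overlap between the groups. This gave a log2 fold change of -0.66 ± 0.29 (SE) (adjusted p = 0.462).

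miR-182-5p and miR-183-5p, from a cluster best known in sensory organs such as the retina and inner ear, lie at chr6:30165962-30165986 (-) and chr6:30169711-30169732 (-). miR-182-5p measured 849, 271, 834, 691 and 450.1 CPM in ICH and 881, 584, 769, 3698 and 494 CPM in ICH_Sham. Its neighbour miR-183-5p, named here after its values were seen, measured 1479, 570.3, 1509, 829.2 and 805 CPM in ICH and 640.4, 835, 827, 7068 and 741 CPM in ICH_Sham. In both the high library was ICH_Sham 4, the one with most of the miR-124-3p counts. The fold change of miR-182-5p was -1.05 ± 0.47 (SE) (adjusted p = 0.462) and -0.17 without ICH_Sham 4, and that of miR-183-5p was -0.96 ± 0.56 (SE) and turned to 0.42 without it.

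Liver and muscle miRNAs were lower in the mean of the ICH libraries. miR-122-5p, the main miRNA of hepatocytes, measured 56496, 70157, 32104, 58679.6 and 77055 CPM in ICH and 448257, 81247, 83531, 68232 and 33172 CPM in ICH_Sham. The size of the difference rested on ICH_Sham 1, since the fold change of -1.28 ± 0.71 (SE) (adjusted p = 0.472) was -0.21 without it. Naive libraries had 143982 ± 182600 CPM of miR-122-5p (SD, n = 5), from 28680.5 to 450460 CPM. All 4 tested members of the liver and gut list were negative (93 of all 199 were), 0 at an unadjusted p under 0.05 (10.1% over all 199). Their median was -0.48 beside 0.02 over all 199. Among them miR-192-5p had -0.28 ± 0.27 (SE) and miR-194-5p -0.69 ± 0.36 (SE), and without ICH_Sham 1 these were -0.05 and -0.38.

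The muscle miRNA miR-133a-3p measured 349.8, 1337, 2065, 2931 and 1911 CPM in ICH and 3307, 3331, 4945, 2677 and 1506 CPM in ICH_Sham. ICH 1 was far below the rest, the groups overlapped, and the log2 fold change was -0.87 ± 0.44 (SE) (adjusted p = 0.462). miR-206-3p, found in skeletal but not heart muscle, had 19642 ± 5305 CPM in ICH and 27116 ± 4158 CPM in ICH_Sham (SD, n = 5 each) with a fold change of -0.47 ± 0.27 (SE) (adjusted p = 0.472). All 5 tested members of the muscle list were negative (93 of all 199 were), from -0.87 to -0.05. Their median was -0.47 beside 0.02 over all 199, and 0 had an unadjusted p under 0.05 (10.1% over all 199). Among the 5, miR-206-3p and miR-133b-3p lie in the same cluster and need not vary independently. The summed level of the list was 29092 to 67865 CPM in ICH and 43665 to 65396 CPM in ICH_Sham, so the ranges overlapped.

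In the other lists the members lay close to 0 or on both sides of it. miR-29a-3p, at chr6:31062673-31062694 (-) outside other annotated genes and of a family that represses collagen genes, measured 5207, 7648, 6026, 7567 and 5843 CPM in ICH and 5236, 5251, 4102, 4729 and 4858 CPM in ICH_Sham, where only ICH 1 lay within the sham range. Its log2 fold change was 0.42 ± 0.17 (SE) (adjusted p = 0.462), and the 3 tested miRNAs with its seed, itself included, had fold changes of 0.19 to 0.46. The mesenchymal list, with 9 tested members, had a median of 0.25 and 0 at an unadjusted p under 0.05 (10.1% over all 199). Its most abundant member, miR-143-3p of smooth muscle, was highest in ICH 1 and ICH_Sham 1 and had 0.38 ± 0.39 (SE), turning to -0.14 without ICH 1. The let-7 family (7 tested, median 0.14), the endothelial list (4 tested, median 0.11) and the list of miRNAs induced in inflammation (3 tested, median 0.04) also had 0 members at an unadjusted p under 0.05. miR-222-3p of endothelium and smooth muscle had -0.47 ± 0.25 (SE), and the 2 tested neuroendocrine miRNAs, miR-375-3p of pancreatic islets among them with -0.43 ± 0.24 (SE), lay on both sides of 0. miR-210-3p, the main miRNA induced by hypoxia, was below the filter with 47 counts in ICH and 35 in ICH_Sham (ratio 1.24, exact 95% interval 0.781 to 1.97).

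**Figure D4:**
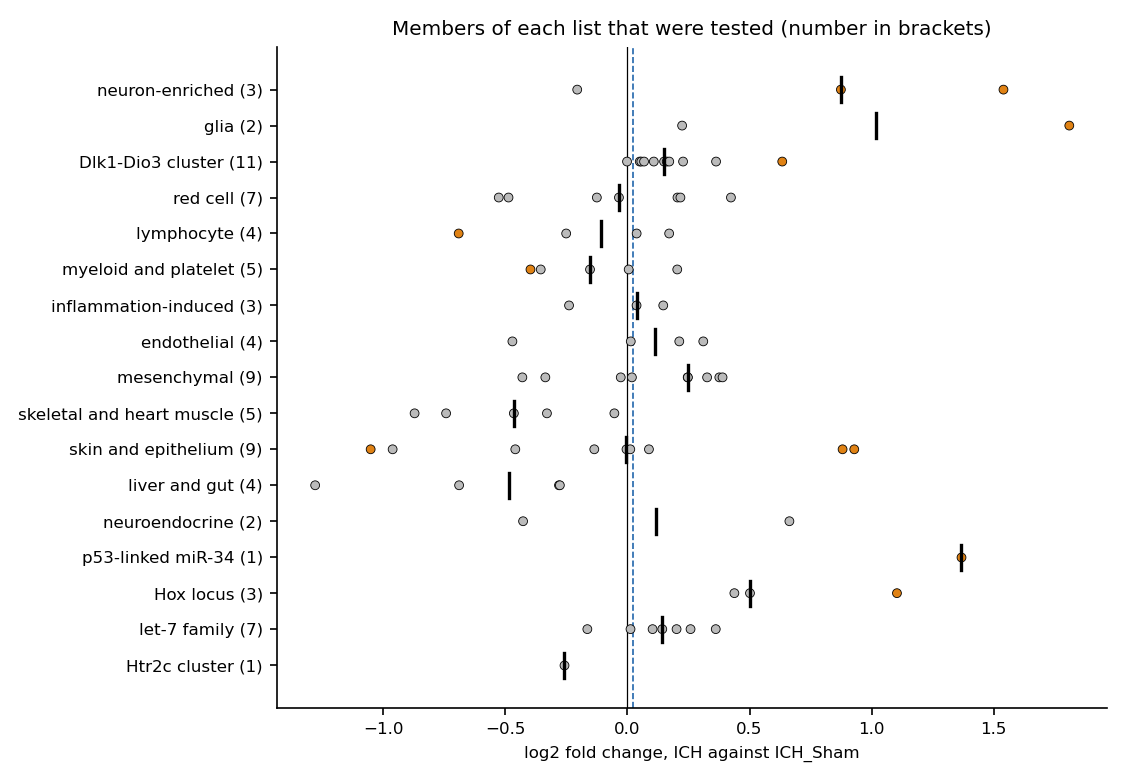
Log2 fold change of ICH against ICH_Sham for each tested member (points) of each list, with the list's median as a black bar and the median of all 199 miRNAs, 0.02, as a blue dashed line. Orange points have an unadjusted p under 0.05 and none passed the adjusted threshold. All tested members of the muscle and the liver and gut lists lie left of 0, as do 93 of all 199 miRNAs.

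The remaining miRNAs at an unadjusted p under 0.05 were of several kinds. miR-351-5p, at chrX:53053315-53053338 (-) in a cluster with miR-503 and miR-322 on the X chromosome, measured 109.9, 234, 159, 149.7 and 166 CPM in ICH and 158, 234, 298, 278 and 329 CPM in ICH_Sham, with overlap, a log2 fold change of -0.65 ± 0.26 (SE) and an adjusted p of 0.462. The seed it shares with miR-125a-5p and miR-125b-5p did not go with a shared size of change, since those 2 had -0.19 and -0.15. miR-378a-5p, from an intron of the metabolic coactivator gene Ppargc1b, had 215.8 ± 102 CPM in ICH and 372 ± 145 CPM in ICH_Sham (SD, n = 5 each) and a fold change of -0.77 ± 0.32 (SE). miR-15b-3p, miR-19b-3p and miR-100-5p completed the 20, all higher in the mean of ICH, with fold changes of 0.80, 0.53 and 0.40 and adjusted p of 0.462 each.

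Hemorrhage libraries differed more among themselves than sham libraries did. The SD of log2 CPM between libraries was larger in ICH than in ICH_Sham for 149 of 199 miRNAs, with medians of 0.395 and 0.273, and the medians of MCAO, MCAO_Sham and Naive were 0.403, 0.423 and 0.448. ICH_Sham had the lowest median of the 5 groups, and no test was made of this measure. The edgeR test takes a common spread per miRNA from all 5 groups. For the leading miR-203-3p the SD was 0.806 in ICH and 0.160 in ICH_Sham, so its standard error need not match the spread in ICH. Values over 1 log2 unit from the mean of the other 4 libraries of the group were seen for 30 miRNAs in ICH 1, 16 in ICH 2, 14 in ICH 3, 11 in ICH 4 and 8 in ICH 5, and for 3 to 11 in each sham library. They were spread over different miRNAs, as with miR-203-3p and miR-205-5p in ICH 3, miR-9-5p and miR-219a-2-3p in ICH 4 and miR-10a-5p, miR-143-3p and miR-133a-3p in ICH 1. ICH 1 had the second lowest TMM factor and ICH 3 the fewest counts of the ICH libraries, 92040, and the part of scaling and depth in these deviations was not tested.

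**Figure D5:**
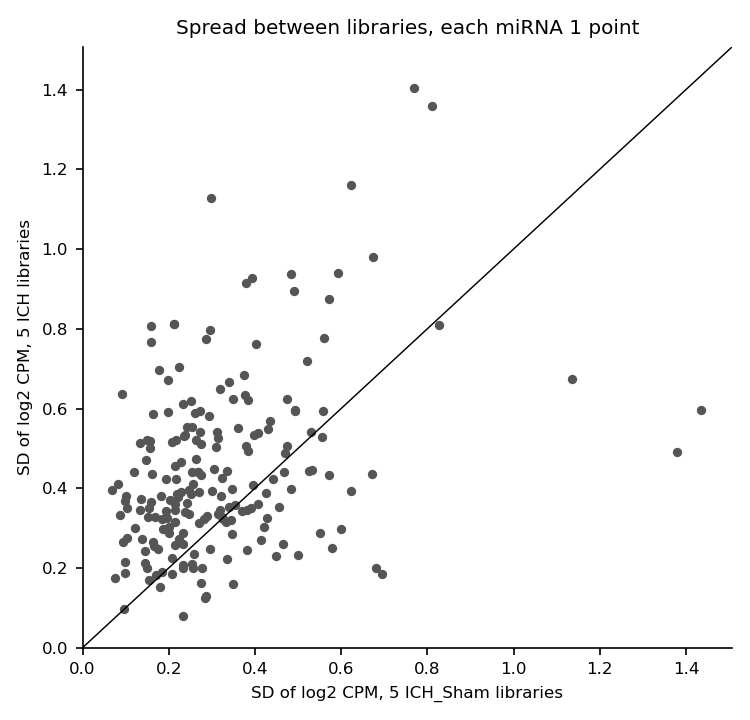
SD of log2 CPM over the 5 ICH libraries (vertical axis) against the SD over the 5 ICH_Sham libraries (horizontal axis), 1 point for each of 199 miRNAs, with the line of equal SD. The points lie above the line for 149 miRNAs.

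The effect of hemorrhage was set against that of ischemia by the difference of the 2 effects, each over its own sham. It passed the test for 2 of 199 miRNAs (1.01%), miR-615-3p and miR-1298-5p. miR-615-3p had 361 ± 293 CPM in ICH and 169 ± 85.8 in ICH_Sham, and 103 ± 57.9 in MCAO and 309.8 ± 125 in MCAO_Sham (SD, n = 5 each), so the means differed in opposite directions. The difference of effects was 2.75 ± 0.62 (SE) on the log2 scale with an adjusted p of 0.0148 by edgeR's quasi-likelihood test.

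miR-1298-5p, at chrX:147064918-147064939 (+) in an intron of the serotonin receptor gene Htr2c, which is strongly expressed in choroid plexus, was close to 0 counts in the serum of both ICH and ICH_Sham mice. It had 8 counts over the ICH libraries (2, 1, 3, 1 and 1) and 9 over the sham libraries (1, 2, 2, 1 and 3), a ratio of 0.818 with an exact 95% interval of 0.275 to 2.39, and 6 counts in Naive. It passed the filter only through the MCAO libraries, where it was high, with 1327 ± 808 CPM against 33.4 ± 37.0 CPM in MCAO_Sham (SD, n = 5 each). The difference of effects was -5.55 ± 1.27 (SE) with an adjusted p of 0.0148, for a miRNA that entered the test by its level in MCAO, and with no count filter it was -5.61 with an adjusted p of 0.00034. Of the other miRNAs of the Htr2c locus, miR-448-3p had 3 counts in ICH and 1 in ICH_Sham, and miR-764-5p and miR-1912-3p had 0 in both. Both calls were lost without ICH_Sham 3 (adjusted p = 0.0549 for each) and in run 2 alone (0.0936 for each), and that of miR-1298-5p also without ICH_Sham 5 (0.0932).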

How the data were processed

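Serum small RNA counts of 25 libraries were used. The authors deposited whole-number read counts per mature miRNA, not normalized and without molecular identifiers, 2 columns per library, and the submitters' processing notes name Bowtie 0.12.9. Not given in the sources used here are the genome build, the annotation release, the trimming and how reads matching several miRNAs were counted. Per the labels' protocols a fixed volume of extract from 200 µL of serum entered each library, so a difference in RNA content would change totals, which was not tested. Columns of the same index tag were summed. miRNAs were kept by edgeR's filterByExpr (minimum count 10, 199 of 925 with counts), scaled by TMM and fitted in one model with a mean per group over all 25 libraries (20 residual degrees of freedom), with edgeR's quasi-likelihood test in its robust form, Benjamini-Hochberg adjustment over the 199 and a threshold of 0.05. The scripts were tested on simulated data. For single values per library the test was an exact permutation of the groups, two-sided, over 252 arrangements, adjusted over 6 values. Ratios of summed counts have exact 95% intervals, and a count of 0 a limit of 3 counts. Tissue lists were written from general knowledge, and clusters and seeds came from RefSeq and GENCODE for GRCm38, in which 170 of the 199 matched. The members and lists were chosen with earlier results of these data known. The text names the 12 smallest p, the 10 most abundant miRNAs (4 of them only as a range), up to 3 members per list, miRNAs with ranges that do not overlap, low brain and Htr2c locus members and calls of the difference of effects, or says otherwise; of the 20 with an unadjusted p under 0.05, those outside this rule are named to complete the set, and those near 0 are covered by the counts and ranges of their lists. Alternatives were other scalings, filters and tests, each run, a replicate block, each of the 10 libraries left out and, chosen after seeing the data, ICH 1 and ICH_Sham 1 left out together. Fits ran in edgeR 4.0.16, DESeq2 1.42.0 and limma 3.58.1 under R 4.3.3, and summaries and figures in Python 3.11.15 with matplotlib 3.10.9.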

Additional observations from a re-analysis of the deposited data

Results flagged for a closer look

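Of 88 groups of 5 libraries examined for a library far from the other 4 of its group, 15 had one. The cut-off gives about 1 in 20 only for independent, normally distributed values. These were mostly CPM not on a log scale, of miRNAs partly chosen from the same data, so the 15 cannot be set against chance. The level was highest in ICH 3 for miR-205-5p (7118 CPM) and lowest in ICH 3 for miR-6538 (19.9 CPM) and for the log2 ratio of miR-486-5p to miR-23a-3p (-0.88). ICH 1 was highest for miR-143-3p (111832 CPM), and ICH 2 was lowest for miR-184-3p (5133 CPM). ICH_Sham 1 was highest for miR-122-5p (448257 CPM, 32.5% of its counts), miR-194-5p (1236 CPM) and miR-143-3p (87459 CPM) and lowest for miR-10b-5p (35318 CPM). ICH_Sham 2 was highest for miR-203-3p (9325 CPM), and ICH_Sham 5 for miR-375-3p (13586 CPM). ICH_Sham 4 was highest for miR-9-5p (148.7 CPM), miR-182-5p (3698 CPM) and miR-183-5p (7068 CPM), and it also held 51 of the 58 sham counts of miR-124-3p.

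The effect of hemorrhage differed from that of ischemia for miR-615-3p, by 2.75 on the log2 scale, and for miR-1298-5p, by -5.55, each with an adjusted p of 0.0148 by edgeR's quasi-likelihood test of the difference itself. miR-1298-5p passed the count filter only through the MCAO libraries, with 1 to 3 counts in each ICH and ICH_Sham library.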

How the results depend on the processing

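The count of 0 called between ICH and ICH_Sham held under every alternative but 1, with 0 to 1 calls when each library was left out (1 without ICH 4). With the replicate block it was also 0, with 18 miRNAs at an unadjusted p under 0.05. The deviations of same-numbered ICH and ICH_Sham libraries correlated by 0.02, -0.0023, 0.20, 0.08 and 0.04, and only the pair numbered 3 correlated best with its own number. These values cannot show whether same-numbered libraries were handled together. The 20 miRNAs at an unadjusted p under 0.05 became 13 with library totals alone, 46 with no count filter, 9 with a minimum count of 50, 10 in run 1 alone and 10 to 24 with each library left out. The 2 calls of the difference of effects became 0 with a minimum count of 50, 1 in run 1 alone, 0 in run 2 alone, 3 by DESeq2 and 0 to 3 with each library left out. Neither miR-34c-5p nor miR-6538 passed the minimum count of 50. The difference in log2 total ran from -0.054 to 0.27 with each library left out and that in miRNAs detected from -4.8 to 14.95, with -0.6 in run 2 alone. The miR-451a ratio difference ran from -0.40 to 0.10. The miR-486-5p ratio difference ran from -0.89 to -0.64 and was -0.94 with ICH 1 and ICH_Sham 1 left out. Its adjusted p was then 0.171 by the exact permutation test over 6 values, where the lowest unadjusted p that 4 against 4 allows is 0.0286. For the share of miR-122-5p the range was -8.36 to -1.18 percentage points, with an adjusted p of 0.0476 (exact permutation) only without ICH_Sham 5. Directions of single miRNAs turned for 3 of those named. The log2 fold change with each library left out ran from -1.27 to 0.42 for miR-183-5p, from -0.14 to 0.86 for miR-143-3p and from -0.65 to 0.045 for miR-1298-5p, which was 0.11 in run 2 alone. The cause of these changes was not tested. With 75052 to 183112 counts per library 1 count was worth 5.76 to 11.8 CPM, which limits miRNAs such as miR-9-3p and miR-124-3p to counts.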
